A study of Mus musculus with 15 samples.

Results

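The Toll-like receptors, through which macrophages sense bacterial products, and their co-receptors for lipopolysaccharide (LPS) were followed at the mRNA level in RAW 264.7 cells, a mouse macrophage line, that received LPS together with extracellular vesicles (EVs) from irradiated mice. The members were chosen by gene symbol, as Tlr1, Tlr2, Tlr3, Tlr4, Tlr7, Tlr8, Tlr9, Cd14, Ly96 and Ly86. Of these 10 genes, 9 have a row among the 561 genes of the deposited values, and Tlr7 was not analysed here. With 9 Gy EVs, Cd14, Ly96 and Tlr1 were lower than with sham EVs at both days relative to housekeeping genes, whereas Tlr4 was close to its level with sham EVs and Tlr2 had higher means without passing the test. These calls depended on the scaling of the samples. With TMM scaling 1 of these decreases passed the test, that of Tlr1 at day 7, and with scaling to total counts 0 did, while Tlr2 passed as higher at both days under either scaling. Tlr4 also passed as higher, at day 7 under either scaling and at day 3 with total counts. With 2 Gy EVs, 0 of the 6 members with enough counts for a test differed from sham EVs.

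Toll-like receptor 4 recognizes LPS at the cell surface, but it does so as a complex: CD14 takes up LPS and passes it on to MD-2, the product of Ly96, which binds LPS directly and sits on the outer part of the receptor. Ly86 encodes MD-1, a relative of MD-2 that partners the receptor-like protein RP105. Toll-like receptor 2 recognizes bacterial lipopeptides, and with Toll-like receptor 1 as its partner it binds triacylated forms. Toll-like receptors 3, 7, 8 and 9 lie in endosomes and respond to nucleic acids. All of these receptors except Toll-like receptor 3 signal through the adaptor MyD88, and Toll-like receptor 4 also uses the adaptor TRIF, on which Toll-like receptor 3 depends. In macrophages, LPS itself changes the expression of several of these genes, with Cd14 and Tlr2 being known LPS-induced genes.

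The EVs came from plasma of female C57BL/6J mice, 6 to 8 weeks old, that were sham treated or irradiated over the whole body (WBIR) with 2 or 9 Gy and were sampled 3 or 7 days later. Each of the 5 groups had 3 samples, 15 in all, and every one of them, sham EVs included, was exposed to EVs for 24 hours together with LPS at 1 µg/ml, so the values describe LPS-treated cells throughout. Cells without LPS or without EVs were not analysed here, and the results concern 1 cell line. The 9 Gy day 3 samples are placed by their titles, but replicates 1 and 2 of that group carry a day label of 7. The labels and the study's methods also differ on the number of EVs per exposure and on the lysis reagent. Nothing in the labels says that samples of a group came from separate cultures or mice, so p-values measure the spread between these samples, which may be technical.

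Gene expression was measured on the nanoString nCounter Mouse Immunology panel, which counts barcoded probes hybridized to each mRNA. The deposited values are raw counts with a lowest value of 1. Total counts were between 43176 and 87899 in the 9 Gy day 3 samples and between 453178 and 837995 in the other 12 samples. The study's methods give the same amount of RNA for every hybridization, and why the totals of the 9 Gy day 3 samples were lower was not tested. In bulk RNA, fewer cells of a type and less RNA of a gene per cell cannot be told apart. Normalized counts are counts divided by the geometric mean of the 14 housekeeping genes on the panel, put back on the count scale. The housekeeping mean was not a constant share of the counts. In the 9 Gy day 7 samples its group mean was 1.64 times that of the sham samples while the total count was 0.768 times, and the housekeeping genes made up between 14.3% and 17.4% of all counts with 9 Gy EVs and between 9.95% and 11.2% in the other groups. The test took in the 269 genes whose mean count was 20 or more, and 6 members are among them. As probes differ in efficiency, levels are compared within a gene, except that low counts are set beside those of lymphocyte genes as a rough gauge. Of 11 macrophage markers, 10 are on the panel, and all 10 had a mean of at least 20 counts in the sham samples. Of 12 T cell markers, 2 had such a mean there, Cd8a with 82 to 125 counts and Lck with 47 to 52, and the other 10 had at most 18 counts.

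Promoter sequences from RefSeq (build GRCm38.p6, from 250 bases before to 50 after the annotated start) were used for 6 members, and 3 of them are shown because they belong to Tlr1, Tlr2 and Ly86, a receptor pair and the gene whose counts followed Tlr1 most closely among the members. Capitals mark the motif matches described after the sequences, and all are written 5′ to 3′ on the strand of the gene.
Tlr1, chr5:64933509-64933808, minus strand: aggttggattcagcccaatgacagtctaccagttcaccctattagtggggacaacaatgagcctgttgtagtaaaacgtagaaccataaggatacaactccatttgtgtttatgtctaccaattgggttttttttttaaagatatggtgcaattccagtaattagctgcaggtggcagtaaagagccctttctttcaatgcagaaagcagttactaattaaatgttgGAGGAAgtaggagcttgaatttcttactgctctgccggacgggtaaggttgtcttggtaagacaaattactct
Tlr2, chr3:83841559-83841858, minus strand: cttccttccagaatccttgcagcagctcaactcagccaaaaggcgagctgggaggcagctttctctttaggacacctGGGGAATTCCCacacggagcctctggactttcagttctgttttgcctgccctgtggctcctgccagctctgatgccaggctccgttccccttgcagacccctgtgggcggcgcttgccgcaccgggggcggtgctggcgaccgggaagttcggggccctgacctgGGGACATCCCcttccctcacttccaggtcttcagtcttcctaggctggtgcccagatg
Ly86, chr13:37345095-37345394, plus strand: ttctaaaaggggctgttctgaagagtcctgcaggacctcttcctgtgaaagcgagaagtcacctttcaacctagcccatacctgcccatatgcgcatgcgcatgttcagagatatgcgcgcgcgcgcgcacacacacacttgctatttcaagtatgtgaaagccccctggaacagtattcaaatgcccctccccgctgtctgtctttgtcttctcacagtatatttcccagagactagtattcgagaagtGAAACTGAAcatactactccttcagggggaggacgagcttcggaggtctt
Letters were searched on both strands for the κB consensus of NF-κB, a run of 10 bases, for GAGGAA, the core recognized by the myeloid factor PU.1, for GAAANNGAA, an interferon regulatory factor type element, and for TGANTCA, the AP-1 element. The Tlr2 window held 3 κB matches, at positions 78 and 79, which overlap, and at position 243, with positions counted from 1 at the 5′ end of the window. The Tlr1 window held 1 GAGGAA at position 228, and a further annotated start of Tlr1 had none of the 4 motifs in its window. The Ly86 window held GAAANNGAA at position 251, the annotated start itself. Among 32851 promoter windows of the same length, 8.46% held a κB match, 28.3% GAGGAA, 8.56% GAAANNGAA and 7.81% TGANTCA. These are matches of letters and were not tested for factor binding.

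Cd14, the LPS co-receptor that hands LPS to MD-2, was among the members that were lower with 9 Gy EVs. Normalized counts were 3006, 1875 and 3932 in the sham samples. They were 966, 961 and 1889 in the 9 Gy day 3 samples and 958, 933 and 1594 in those of day 7. All 3 samples of 9 Gy day 7 lay below every sham sample, and of the 9 Gy day 3 samples only replicate 3 reached the lowest sham value. Compared to sham EVs, Cd14 fell 2.53-fold at day 7 (log2 fold change -1.34, SE 0.35, adjusted p = 0.00455 by the quasi-likelihood test of edgeR, adjusted over 269 genes by the Benjamini-Hochberg method) and 2.30-fold at day 3 (log2 fold change -1.20, SE 0.35, adjusted p = 0.0110). The day 3 result missed the threshold without 9 Gy day 3 replicate 2 (log2 fold change -1.03, adjusted p = 0.0523) or without sham replicate 3 (-0.93, adjusted p = 0.0548). With both samples of conflicting day label left out, replicate 3 was the only sample of the group, and its difference from sham EVs was -0.64. Raw counts behind the day 3 values were 163, 240 and 572.

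Ly96, which encodes MD-2, the LPS-binding subunit of the Toll-like receptor 4 complex, was measured at 88.5, 63.8 and 103 normalized counts with sham EVs. With 9 Gy day 7 EVs it was measured at 40.8, 54.8 and 33.0. With 9 Gy day 3 EVs the samples spread from 5.93 over 36.3 to 68.1, and these rest on raw counts of 1, 11 and 17. All 9 Gy day 7 samples were below all sham samples, but at day 3 replicate 2 overlapped with sham EVs. At day 7 Ly96 fell 1.99-fold (log2 fold change -0.99, SE 0.31, adjusted p = 0.0127 in edgeR), a call that was lost without sham replicate 3 (log2 fold change -0.83, adjusted p = 0.0541). The day 3 difference (log2 fold change -1.11, SE 0.40, adjusted p = 0.0327) rested on the lowest counts and ran from -0.73 without 9 Gy day 3 replicate 1 to -1.79 without 9 Gy day 3 replicate 2. It missed the threshold without 9 Gy day 3 replicate 1 (-0.73, adjusted p = 0.0888), 9 Gy day 3 replicate 3 (-1.04, adjusted p = 0.0950), sham replicate 1 (-1.08, adjusted p = 0.0630) or sham replicate 3 (-0.94, adjusted p = 0.0922). It also missed it with the housekeeping genes of a mean of at least 100 (-0.93, adjusted p = 0.0786), with no filter (adjusted p = 0.0527), with only the groups compared (adjusted p = 0.0959) and with counts under 20 set to 20 (-0.32, adjusted p = 0.265), so the day 3 decrease of Ly96 depended on the processing.

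Tlr4, the signaling receptor of this complex, was close to its sham level in all groups relative to housekeeping genes. Normalized counts were 29.8, 23.8 and 40.7 in the sham samples, 35.6, 28.0 and 23.1 in the 9 Gy day 3 samples, and 29.5, 32.8 and 30.6 in the 9 Gy day 7 samples. The groups overlapped fully. The log2 fold change was -0.17 at day 3 (95% interval -0.73 to 0.38, adjusted p = 0.649 in edgeR) and -0.02 at day 7 (95% interval -0.41 to 0.36, adjusted p = 0.905). These intervals leave room for a decrease or an increase of up to about 0.4 at day 7, so an equal level was not shown. Raw counts of Tlr4 were 60 to 65 with 9 Gy day 7 EVs and 31 to 54 with sham EVs, and the housekeeping scaling brings them together. At day 7 Tlr4 passed as higher with TMM (0.46, adjusted p = 0.0408 in edgeR), median-of-ratios (0.46, adjusted p = 0.0388) and total counts (1.07, adjusted p = 0.000528). At day 3 it passed with total counts (0.84, adjusted p = 0.0486) but not with TMM (0.30, adjusted p = 0.523).

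Ly86, which encodes MD-1, was lower with 9 Gy EVs by less than Cd14, Ly96 or Tlr1. Normalized counts were 479, 617 and 496 in the sham samples, 403, 372 and 254 in the 9 Gy day 3 samples, and 395, 464 and 363 in the 9 Gy day 7 samples. Every 9 Gy sample was below every sham sample. The decrease passed the test at day 3 (1.56-fold, log2 fold change -0.64, SE 0.19, adjusted p = 0.0112 in edgeR) and was lost without 9 Gy day 3 replicate 3 (log2 fold change -0.46, adjusted p = 0.0505) and with the housekeeping genes of a mean of at least 100 (-0.46, adjusted p = 0.0608). At day 7 the log2 fold change was -0.38 (SE 0.18, adjusted p = 0.0748), which missed the threshold in edgeR but not in DESeq2 (adjusted p = 0.0348) or in edgeR with the replicate number as a block (-0.38, adjusted p = 0.0475). With TMM scaling Ly86 did not pass at day 3 (-0.17, adjusted p = 0.437 in edgeR) or at day 7 (0.10, adjusted p = 0.609). With total counts it was at 0.41 at day 3 (adjusted p = 0.128) and passed as higher at day 7 (0.74, adjusted p = 0.00646).

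Tlr1 and Tlr2, whose products pair to bind triacylated lipopeptides, were measured apart, and with 9 Gy EVs Tlr1 fell relative to the 14 housekeeping genes while Tlr2 did not pass the test on that scale. Tlr1 was measured at 29.8, 49.2 and 35.4 normalized counts with sham EVs and at 13.8, 19.97 and 17.9 with 9 Gy day 7 EVs. At day 3 the values were 29.6, 12.01 and 9.91, from raw counts of only 5, 3 and 3, and the 95% Poisson interval of a count of 3 runs from 0.619 to 8.77, for counting error alone. Each 9 Gy sample lay below all sham samples, although replicate 1 of day 3 did so by less than 1 normalized count. Tlr1 fell 2.22-fold at day 7 (log2 fold change -1.15, SE 0.27, adjusted p = 0.00222 in edgeR) and kept this call in all 6 fits that left out 1 of the samples compared. The day 3 value was -1.30 (SE 0.42, adjusted p = 0.0196), and it missed the threshold without 9 Gy day 3 replicate 2 (-1.14, adjusted p = 0.0880), 9 Gy day 3 replicate 3 (-0.98, adjusted p = 0.108) or sham replicate 2 (-1.08, adjusted p = 0.0507).

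Tlr2 was at 75.0, 118 and 78.3 normalized counts in the sham samples, 83.0, 208 and 112 in the 9 Gy day 3 samples, and 146, 115 and 138 in the 9 Gy day 7 samples. Sham replicate 2 reached into the range of both 9 Gy groups. The log2 fold change was 0.59 at day 3 (95% interval -0.07 to 1.25, adjusted p = 0.119 in edgeR) and 0.55 at day 7 (95% interval -0.04 to 1.14, adjusted p = 0.0962), so Tlr2 did not pass the test. Without sham replicate 2 it passed as higher at day 3 (0.83, adjusted p = 0.0436) and at day 7 (0.79, adjusted p = 0.0319), and without 9 Gy day 3 replicate 1 it passed at day 3 (0.81, adjusted p = 0.0471). The day 3 value was 0.14 (adjusted p = 0.714) without 9 Gy day 3 replicate 2, the sample at 208 normalized counts, and the day 7 value was lowest without sham replicate 1 (0.43, adjusted p = 0.264). DESeq2 gave an adjusted p of 0.0468 at day 7. With scaling to the housekeeping genes of a mean of at least 100 alone, Tlr2 passed as higher at day 7 (0.75, adjusted p = 0.0303 in edgeR) and was at 0.77 at day 3 (adjusted p = 0.0502). In raw counts Tlr2 was at 296, 224 and 293 in the 9 Gy day 7 samples and at 83, 154 and 104 with sham EVs.

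**Figure D1:**
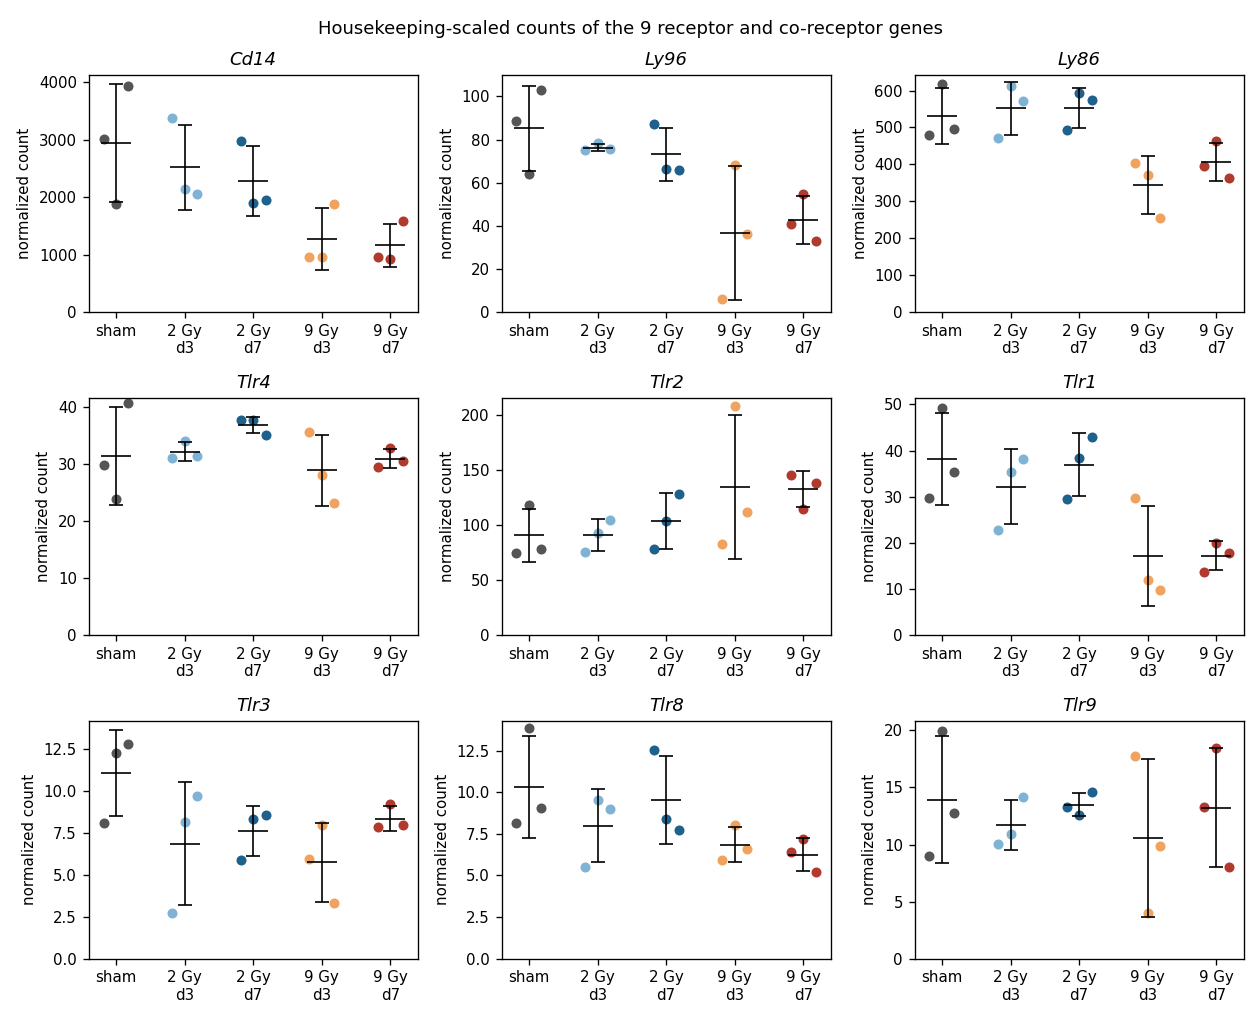
Normalized counts (counts scaled to the 14 housekeeping genes, linear axes from 0) of the 9 genes in each of the 15 samples, by EV group, with d3 and d7 for days 3 and 7. Points are samples in the order of their replicate number, and bars give the mean and SD of 3 samples. Cd14, Ly96, Ly86 and Tlr1 were lower in most 9 Gy samples than in the sham and 2 Gy samples, Tlr4 overlapped between the groups and Tlr2 reached up to 208 with 9 Gy day 3 EVs.

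Across all 269 genes tested, 52.4% passed the test (adjusted p under 0.05) for 9 Gy day 3 compared to sham EVs, 41.3% lower and 11.2% higher. Of the members, 4 of 6 were lower (Cd14, Ly96, Ly86 and Tlr1) and 0 higher. With 9 Gy day 7 EVs 61% of all genes differed, 49.1% lower and 11.9% higher, and 3 of 6 members were lower (Cd14, Ly96 and Tlr1), with 0 higher in edgeR. DESeq2 gave 4 members at day 3, all lower, beside 145 of the 269 genes. At day 7 it gave 5 members, Tlr2 as higher and Cd14, Ly96, Ly86 and Tlr1 as lower, beside 178 of the 269 genes. Decreases were thus common across the panel and were not particular to the members. The median log2 fold change of the members was -0.87 at day 3 and -0.69 at day 7, against -0.46 and -0.45 over all genes. Both comparisons use the same 3 sham samples.

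**Figure D2:**
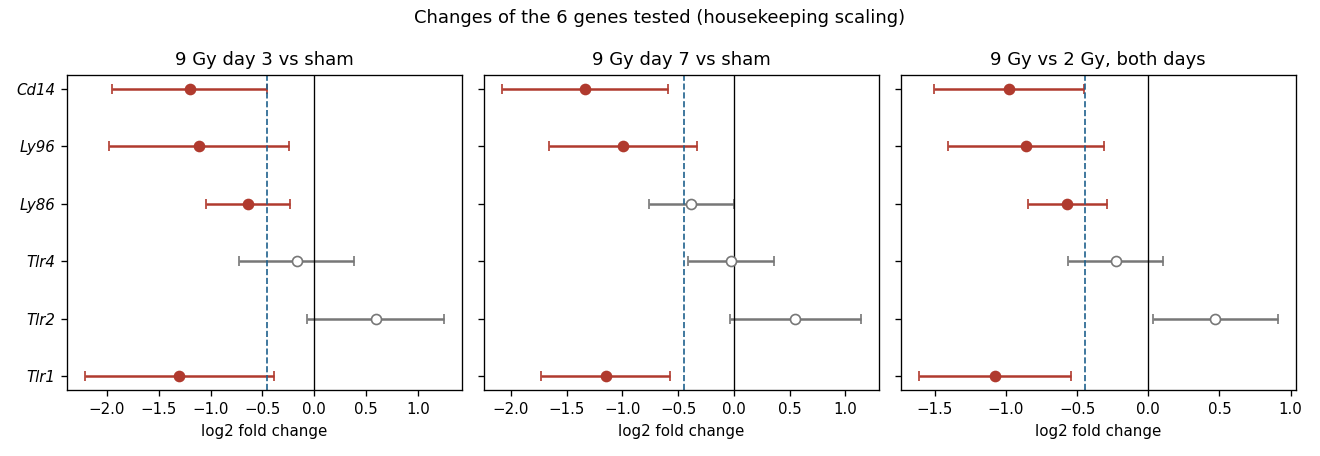
Log2 fold changes of the 6 tested genes, on the housekeeping scale, for 9 Gy day 3 EVs and 9 Gy day 7 EVs compared to sham EVs and for 9 Gy compared to 2 Gy EVs. Bars are 95% intervals, filled points passed the test at an adjusted p under 0.05 in edgeR, and the dashed line is the median of all 269 genes. Cd14, Ly96 and Tlr1 lie left of the dashed line in all 3 panels and Tlr4 and Tlr2 right of it.

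The doses were also compared directly, as a contrast of the 6 samples of 9 Gy with the 6 samples of 2 Gy, days combined. This contrast takes all these samples as separate, although same-numbered samples of the days of a dose deviated together, so its p-values may be too low. The 2 Gy samples had Cd14 between 1902 and 3377 normalized counts, all above the highest 9 Gy sample at 1889. Ly86 was between 471 and 612 in the 2 Gy samples and at most 464 in the 9 Gy samples. Ly96 was between 66.0 and 87.2 with 2 Gy EVs, and among the 9 Gy samples only day 3 replicate 2 came into that range.

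Tlr1 was between 22.9 and 42.9 normalized counts with 2 Gy EVs, and only day 3 replicate 1 of the 9 Gy samples came into that range, with a raw count of 5. In edgeR, 4 of 6 members were lower with 9 Gy than with 2 Gy EVs. These were Tlr1 (log2 fold change -1.08, SE 0.25, adjusted p = 0.00171), Cd14 (-0.98, SE 0.24, adjusted p = 0.00281), Ly96 (-0.86, SE 0.25, adjusted p = 0.00839) and Ly86 (-0.57, SE 0.13, adjusted p = 0.00148). All 4 kept this call in each of the 12 fits that left out 1 sample. With both samples of conflicting day label left out, which leaves 1 sample at 9 Gy day 3, Cd14 missed the threshold (-0.69, adjusted p = 0.0576 in edgeR, with the spread of that sample taken from the other groups). With counts under 20 set to 20, which lifts the low counts of 9 Gy day 3, Tlr1 did not pass (-0.0054, adjusted p = 0.977). These calls are on the housekeeping scale. With TMM scaling Cd14 (-0.53, adjusted p = 0.0782 in edgeR), Ly96 (-0.40, adjusted p = 0.204) and Ly86 (-0.11, adjusted p = 0.468) did not pass. With total counts 0 members were lower, and Ly86 passed as higher (0.59, adjusted p = 0.00275).

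Tlr2 lay between 76.0 and 129 normalized counts with 2 Gy EVs, overlapping with the 9 Gy samples, and its log2 fold change of 0.47 (SE 0.20, adjusted p = 0.0555 in edgeR, unadjusted p = 0.0380) missed the threshold, which it passed in DESeq2 (adjusted p = 0.0215) and in edgeR with the replicate number as a block (0.47, adjusted p = 0.0406). It also passed with scaling to the housekeeping genes of a mean of at least 100 (0.67, adjusted p = 0.0110). It passed without 9 Gy day 3 replicate 1 (0.58, adjusted p = 0.0208), 9 Gy day 3 replicate 3 (0.54, adjusted p = 0.0468) or 2 Gy day 7 replicate 3 (0.56, adjusted p = 0.0346), and was at 0.24 (adjusted p = 0.276) without 9 Gy day 3 replicate 2. Tlr4 was between 31.1 and 37.7 with 2 Gy EVs and its log2 fold change was -0.23 (SE 0.16, adjusted p = 0.237). Over all genes, 67.7% differed between the doses, 52% lower and 15.6% higher with 9 Gy EVs.

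Within a sample, the ratio of the raw counts of a pair of genes does not depend on how samples are scaled. The ratio of Tlr2 to Tlr4 was 2.52 in the median sham sample, with a range from 1.93 to 4.97. It ranged from 2.08 to 3.66 over the 2 Gy samples and from 2.33 to 7.43 over the 9 Gy samples. On the log2 scale it was 2.11 ± 0.56 (SD, n = 6) with 9 Gy EVs and 1.48 ± 0.30 (SD, n = 6) with 2 Gy EVs, a 1.55-fold difference with an exact two-sided permutation p of 0.0346, or 0.104 after Benjamini-Hochberg adjustment over 3 ratios. Sham replicate 2, with 4.97, was higher than 5 of the 6 samples given 9 Gy EVs. The difference on the log2 scale was 0.63, and it was 0.48 without 9 Gy day 3 replicate 2. Without 9 Gy day 3 replicate 1 it was 0.81 and passed (exact permutation, adjusted p = 0.0195). This test takes all 12 samples as separate, although same-numbered samples of the days of a dose deviated together. With each such pair averaged, a comparison of 3 against 3 values chosen after seeing the data, the exact permutation p was 0.20, where 0.10 is the lowest possible.

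The ratio of Cd14 to Ly96 was not shown to differ between the doses, at 5.18 ± 1.31 with 9 Gy EVs and 4.98 ± 0.28 with 2 Gy EVs on the log2 scale (SD, n = 6 each, exact permutation p = 0.768), although both genes were lower with 9 Gy EVs. The ratio of Ly86 to Ly96 was 3.53 ± 1.30 with 9 Gy EVs and 2.89 ± 0.26 with 2 Gy EVs (exact permutation p = 0.273). A test of 6 against 6 separate samples can give an exact p as low as 0.00216. With the pairs averaged, the exact permutation p was 0.90 for Cd14 over Ly96 and 0.40 for Ly86 over Ly96. For Ly86 over Ly96, the spread of the 9 Gy values rested on day 3 replicate 1, at 6.09 on the log2 scale with a Ly96 count of 1, while the other 5 samples were between 2.45 and 3.46. The ratio of Cd14 to Ly96 varied at both days, from 14.1 to 163 in the 9 Gy day 3 samples and from 17.02 to 48.4 in those of day 7.

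The ratio of Tlr1 to Tlr2 was singled out after the values were seen and is given without a test. In the sham samples it was between 0.398 and 0.452. The ratio was between 0.301 and 0.380 in the 2 Gy day 3 samples and between 0.333 and 0.377 in the 2 Gy day 7 samples. In the 9 Gy day 7 samples it was between 0.0946 and 0.174, below all 9 samples of the sham and 2 Gy groups. The 9 Gy day 3 samples were at 0.0577, 0.0882 and 0.357, so replicate 1 was at the level of the 2 Gy samples and the other 2 were not. The 9 samples of the sham and 2 Gy groups kept a narrow ratio, from 0.301 to 0.452, while the level of each gene varied between them.

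**Figure D3:**
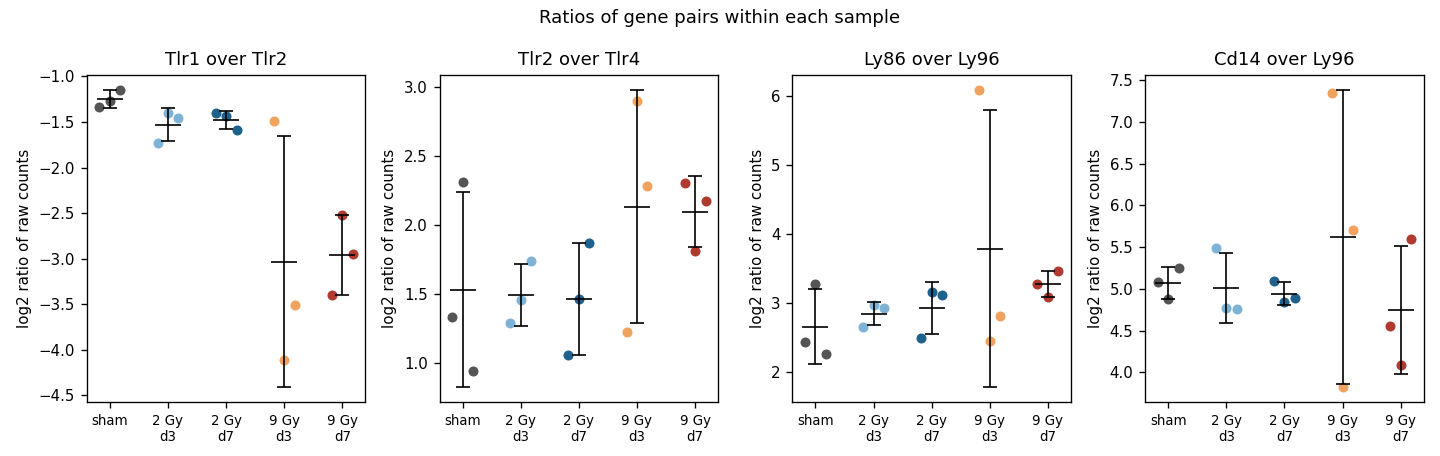
Log2 ratios of the raw counts of 4 pairs of genes within each of the 15 samples, by EV group, with d3 and d7 for days 3 and 7. Points are samples, and bars give the mean and SD of 3 samples. The axes do not start at 0. Tlr1 over Tlr2 was lower in 5 of 6 samples of the 9 Gy groups than in any other sample, and the day 3 samples of 9 Gy spread widely in the ratios with Ly96.

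The receptors for nucleic acids were measured at very low counts. Tlr3, a receptor for double-stranded RNA, had raw counts of 9 to 17 in the sham samples, 3 to 13 in the 2 Gy samples, 16 to 18 in the 9 Gy day 7 samples and 1 or 2 in those of 9 Gy day 3. Tlr8, which senses single-stranded RNA, had 9 to 18 counts in the sham samples, 6 to 17 in the 2 Gy samples, 11 to 14 in the 9 Gy day 7 samples and 1 or 2 in those of 9 Gy day 3. Tlr9, the receptor for unmethylated CpG DNA, had 10 to 26 counts in the sham samples, 11 to 19 in the 2 Gy samples, 17 to 36 in the 9 Gy day 7 samples and 1 to 3 in those of 9 Gy day 3.

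None of Tlr3, Tlr8 and Tlr9 reached a mean of 20 counts, so none was tested. As a gauge of what genes give that these cells should lack, 21 lymphocyte and NK cell genes of the panel had median counts of 7 to 12 outside the 9 Gy day 3 group. Tlr3 and Tlr8 exceeded the 90th percentile of these genes in 0 of 15 samples and Tlr9 did so in 1. Tlr1 did so in 12 samples and Ly96 in 14. Tlr2, Tlr4, Cd14 and Ly86 did so in 15. Against the median of these genes, Tlr3 was higher in 11 samples, Tlr8 in 13 and Tlr9 in 14. As probes differ in efficiency, these genes are a gauge and not a background level of the receptors' own probes.

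No tested member differed detectably between 2 Gy EVs and sham EVs. With 2 Gy day 3 EVs, normalized counts were 3377, 2136 and 2049 for Cd14, and 75.1, 78.3 and 75.5 for Ly96. Compared to sham EVs, the log2 fold changes ran from -0.24 for Tlr1 (95% interval -0.81 to 0.33) to 0.06 for Ly86. With 2 Gy day 7 EVs they ran from -0.36 for Cd14 (95% interval -1.10 to 0.37) to 0.23 for Tlr4 (95% interval -0.17 to 0.62).

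At both days 0 of 6 members passed the test in edgeR, 0 had an unadjusted p under 0.05, and DESeq2 gave 0. Among all genes 0% passed at day 3 and 0% at day 7, where edgeR gave 7 and 1 genes at an unadjusted p under 0.05 and DESeq2 gave 1 and 0 after adjustment.

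Between the days, the members did not differ detectably within a dose. For 9 Gy day 7 compared to 9 Gy day 3 EVs, log2 fold changes ran from -0.14 for Cd14 to 0.26 for Ly86. For 2 Gy they ran from -0.14 for Cd14 to 0.19 for Tlr4. In both comparisons 0 of 6 members passed in edgeR, 0 did so unadjusted and DESeq2 gave 0, beside 0% of all genes at 9 Gy and 0% at 2 Gy. At 9 Gy edgeR gave 6 genes at an unadjusted p under 0.05 and at 2 Gy 4. The intervals at 9 Gy were wide, from -0.82 to 1.13 for Tlr1 and from -0.78 to 1.014 for Ly96. The dose effect at day 7 minus that at day 3 was between -0.22 for Tlr2 and 0.25 for Ly86, and no member passed the test of this interaction (adjusted p = 0.993 for each in edgeR).

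How the samples were scaled set which of these changes passed the test and, for some members, their direction. On the housekeeping scale the median gene was lower with 9 Gy EVs, at -0.45 on the log2 scale at day 7. With TMM scaling, a method that centres the bulk of the genes on no change, the median was 0.03, and with scaling to the total count it was 0.65. In edgeR, the genes that differed from sham EVs at day 7 were 132 lower and 32 higher on the housekeeping scale, 77 lower and 75 higher with TMM, and 31 lower and 143 higher with total counts. At day 3 they were 111 lower and 30 higher, 60 lower and 59 higher, and 33 lower and 121 higher. Median-of-ratios scaling gave 77 lower and 76 higher at day 7, and 61 lower and 60 higher at day 3. Between the doses the split went from 140 lower and 42 higher on the housekeeping scale to 82 and 87 with median-of-ratios, 80 and 89 with TMM, and 36 and 168 with total counts.

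At day 7, Tlr1 was still lower with TMM scaling (log2 fold change -0.67) while Tlr2 (1.04) and Tlr4 (0.46) passed as higher, and Cd14 (-0.86, adjusted p = 0.0503 in edgeR) and Ly96 (-0.51, adjusted p = 0.184) no longer passed. With median-of-ratios scaling Cd14 passed as lower (-0.85, adjusted p = 0.0485) beside Tlr1, and Tlr2 and Tlr4 as higher. With total counts Tlr2 (1.66), Tlr4 (1.07) and Ly86 (0.74) passed as higher, and Cd14 (-0.28) and Tlr1 (-0.05) did not differ detectably. At day 3, TMM scaling left Tlr2 (1.07) as the only member that passed, as higher. Between the doses, TMM left Tlr1 (-0.62) as lower and Tlr2 (0.94) as higher, and with total counts 0 members were lower and 3 higher, Ly86 (0.59), Tlr2 (1.62) and Tlr4 (0.90).

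A change of scaling shifts the log2 fold changes of all genes by nearly the same amount, so the place of a member among all genes is nearly fixed by construction and describes its change relative to the panel. At day 7, 17.5% of the 269 genes had a lower log2 fold change than Cd14, 23.8% than Tlr1, 28.3% than Ly96, 55% than Ly86, 70.3% than Tlr4 and 87% than Tlr2 on the housekeeping scale. With TMM these shares were 17.5% for Cd14, 23.8% for Tlr1, 70.3% for Tlr4 and 87.4% for Tlr2, and with total counts 16.7%, 24.2%, 70.6% and 86.2%. At day 3, the shares on the housekeeping scale were 20.1% for Tlr1, 22.3% for Cd14, 25.3% for Ly96, 42.4% for Ly86, 63.6% for Tlr4 and 86.2% for Tlr2. Relative to the median gene, Tlr4 was thus higher by 0.42 at day 7 and by 0.29 at day 3, and Cd14 lower, at -0.89 and -0.75. By this measure, Cd14, Ly96 and Tlr1 were in the lower part of the panel's changes with 9 Gy EVs of either day, Ly86 near the middle, and Tlr4 and Tlr2 above it.

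**Figure D4:**
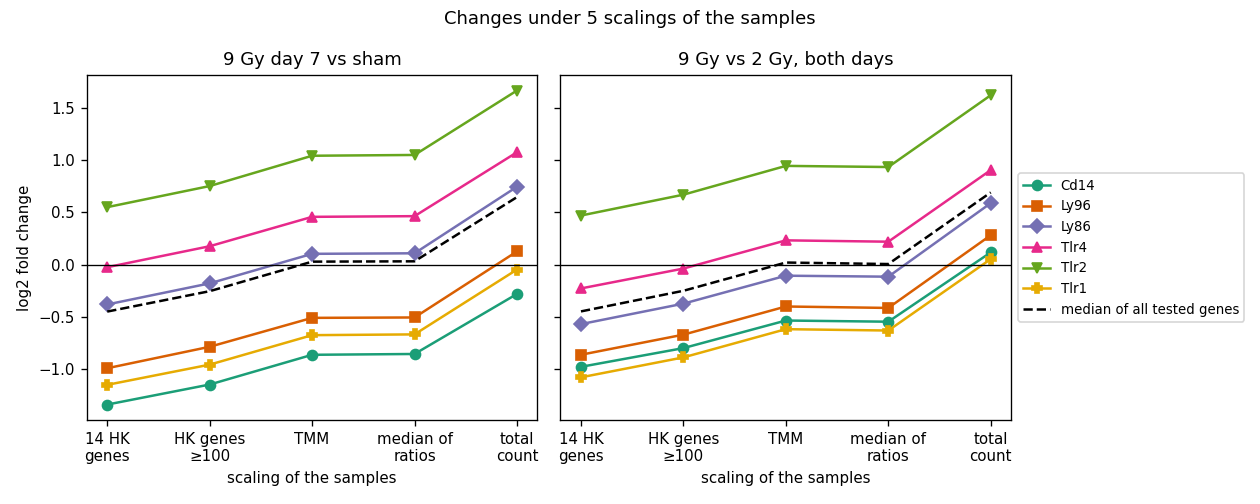
Log2 fold changes of the 6 tested genes under 5 scalings of the samples, for 9 Gy day 7 EVs compared to sham EVs and for 9 Gy compared to 2 Gy EVs (HK, housekeeping). The dashed line is the median of all 269 genes. All lines rise together from -0.45 to 0.65 for the median at day 7, and the order of the genes stays nearly the same, as scaling shifts all genes together.

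The signaling genes downstream of the receptors were followed with a list of 39 further genes of the pathway, of which 26 are on the panel and 22 were tested. In edgeR, 5 of these fell and 2 rose for 9 Gy day 3 compared to sham EVs, beside 41.3% lower and 11.2% higher over all genes. At day 7 of 9 Gy 9 fell and 0 rose, beside 49.1% and 11.9% over all genes. Between the doses 6 were lower and 2 higher at 9 Gy, beside 52% and 15.6%. These counts depended on the scaling. With TMM scaling 3 were lower and 5 higher at day 3, 3 and 6 at day 7, and 2 and 11 between the doses. Median-of-ratios scaling gave 3 and 5, 3 and 6, and 3 and 11. With total counts 2 were lower and 15 higher at day 3, 2 and 13 at day 7, and 2 and 19 between the doses. The median log2 fold change of the list was -0.09 at day 3, -0.26 at day 7 and -0.01 between the doses, against -0.46, -0.45 and -0.45 over all genes. With 2 Gy EVs, 0 of the 22 differed at either day in edgeR, where 2 had an unadjusted p under 0.05 at day 3 and 0 at day 7, and DESeq2 gave 1 and 0.

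Of the list, 4 genes were lower at both days of 9 Gy on the housekeeping scale, with all samples below all sham samples. Irf7, a transcription factor that drives interferon genes, was at 3951 ± 328 normalized counts with sham EVs (SD, n = 3), 722 ± 285 in the 9 Gy day 3 group and 770 ± 249.9 in that of day 7. Its log2 fold changes were -2.44 and -2.36. Tollip, which restrains signaling from these receptors, was at 761 ± 88.6, 174 ± 23.9 and 194 ± 39.9, with log2 fold changes of -2.11 and -1.97. Nfkbia, which encodes the NF-κB inhibitor IκBα, changed by -0.89 and -0.94, and Irak2, a kinase that acts after MyD88, by -0.42 and -0.38. Irf7 and Tollip also passed as lower at both days with TMM, median-of-ratios and total-count scaling. Nfkbia passed as lower with TMM and median-of-ratios but not with total counts, where its changes were 0.11 and 0.17. Irak2 did not pass with TMM or median-of-ratios scaling, and with total counts it passed as higher, at 0.61 and 0.73. On the housekeeping scale, Irak2 missed the threshold at day 3 without 9 Gy day 3 replicate 2 (-0.34, adjusted p = 0.0695 in edgeR) or sham replicate 3 (-0.37, adjusted p = 0.0517), and at day 7 without 9 Gy day 7 replicate 1 (-0.34, adjusted p = 0.0510) or sham replicate 3 (-0.33, adjusted p = 0.0591). It also missed it at both days with the housekeeping genes of a mean of at least 100 (-0.24 and -0.18, adjusted p = 0.128 and 0.217) and with only the groups compared (adjusted p = 0.0896 and 0.0652). With 2 Gy day 3 EVs, Nfkbia (-0.50), Tollip (-0.29) and Irak2 (-0.19) were also below all sham samples, and Irf7 overlapped with them. None of these passed in edgeR (adjusted p = 0.490 for Nfkbia), but Nfkbia did in DESeq2 (adjusted p = 0.04998).

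Both genes that were higher at day 3, named after their values were seen, were Irak4, the first kinase to join MyD88 (0.87, adjusted p = 0.0117), and Rela, an NF-κB subunit (0.55, adjusted p = 0.0397). Their raw counts there were 7 to 15 and 17 to 26. Irak4 missed the threshold in edgeR without 9 Gy day 3 replicate 2 (0.64, adjusted p = 0.167). Rela missed it without 9 Gy day 3 replicate 1 (0.51, adjusted p = 0.0888), 9 Gy day 3 replicate 2 (0.51, adjusted p = 0.115), sham replicate 1 (0.50, adjusted p = 0.0952) or sham replicate 3 (0.52, adjusted p = 0.0895), and in DESeq2 (adjusted p = 0.0573). With both samples of conflicting day label left out, replicate 3 alone was at 0.62 for Irak4 and 0.40 for Rela. Myd88 itself was at 56.4 ± 12.1 normalized counts with sham EVs, 53.2 ± 14.8 in the 9 Gy day 3 group and 77.5 ± 17.1 in that of day 7 (SD, n = 3) and did not pass the test. Tlr5, the flagellin receptor and a further member of the family on the panel, had 12 to 24 raw counts in the sham samples, 19 to 25 in the 9 Gy day 7 samples and 1 to 3 in those of 9 Gy day 3.

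The sum of the macrophage markers was lower in the same samples on the housekeeping scale, on which the median gene was also lower. This sum was not computed with other scalings. The summed normalized counts of the 10 macrophage markers were between 8866 and 11107 with sham EVs and between 9055 and 9729 with 2 Gy EVs. They were between 5418 and 5987 in the 9 Gy day 3 samples and between 5372 and 6025 in those of day 7. Fcer1g, the largest part of the sum, had a mean of 4113 with sham EVs and of 1575 and 1635 at days 3 and 7 of 9 Gy. Not all markers were lower. Tyrobp was at 2640 with sham EVs and at 2711.5 and 2709.3 with 9 Gy EVs, and Ptprc was at 304, 281 and 303. The 12 T cell markers summed to between 186 and 217 with sham EVs and between 92.1 and 142 with 9 Gy EVs, and most of this sum was Cd8a and Lck, which had up to 124 and 55 raw counts in the 9 Gy day 7 samples, while Cd3d and Cd247 had at most 9 and 15 in any of the sham or 9 Gy samples. Csf1r, the receptor for macrophage colony-stimulating factor, which was singled out after its values were seen, went against the sum of its list, at a mean of 133 normalized counts at day 3 and 97.4 at day 7 against 26.3 with sham EVs. The part of these shifts in the values of Cd14, Ly96 and Tlr1 was not tested.

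To describe which other genes shared the pattern of a member, Pearson correlations of log2 normalized counts were computed over the 15 samples, which share the housekeeping scaling and fall into groups. Cd14 was most like Msr1, a scavenger receptor (r = 0.986), Socs3, a feedback inhibitor of cytokine signaling (r = 0.970), and Pou2f2 (r = 0.970). Tlr1 was most like Tapbp, a chaperone of MHC class I loading (r = 0.933), Tnfaip3, which encodes the NF-κB inhibitor A20 (r = 0.921), and the maturation marker Cd83 (r = 0.920). Ly86 was also most like Tapbp (r = 0.928) and Cd83 (r = 0.906), followed by the peptide transporter gene Tap1 (r = 0.905), and Tlr1 and Ly86 correlated with each other at 0.902. For Cd14, Tlr1 and Ly86 the correlations of these genes within groups were at least 0.750. The genes were picked by their correlation over the same samples, which share the housekeeping scaling, so the values within groups are no separate support.

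Ly96 was most like Hprt (r = 0.940), which is one of the housekeeping genes used for scaling, then Ikbkg (r = 0.865) and Il10rb (r = 0.839). Tlr2 was most like the lipid receptor gene Trem2 (r = 0.771), Il1rap, which encodes the accessory chain of the IL-1 receptor (r = 0.753), and the chemokine gene Ccl22 (r = 0.750). Among the genes most like Tlr4 were Fas, which encodes a death receptor (r = 0.693), and Casp1, which encodes the inflammasome protease (r = 0.667). Between the members, Tlr2 correlated negatively with Cd14 at -0.69 and with Tlr1 at -0.48, and Cd14 with Ly96 at 0.598.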

How the data were processed

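RNA of 15 macrophage samples was hybridized to the nanoString Mouse Immunology panel. The authors deposited raw counts per gene, whole numbers from 1 upwards, without control probes, so no background was subtracted. Per the study's methods the counts were later normalized in nSolver 4.0, with settings not given in the sources used here. Samples were grouped by title.

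For scaling, each sample's counts were divided by the geometric mean of 14 housekeeping genes. The 269 of 561 genes whose mean count was 20 or more entered an edgeR 4.0.16 quasi-likelihood fit (R 4.3.3, prior count 0.125, all 5 groups), with Benjamini-Hochberg adjustment and a threshold of 0.05. DESeq2 1.42.0, limma 3.58.1 (voom), other scalings, filters and fits without single samples were alternatives. Standard errors are the log2 fold change divided by the square root of F. Ratios were compared by exact permutation tests. The fit was also run on simulated data in which the housekeeping genes did not change, so that run cannot speak to the choice of scaling. Named were all members, up to 6 pathway genes past the threshold at both 9 Gy days with samples that did not overlap with sham EVs, and the 3 genes most correlated with each member, of which 1 is not reported here. The members and lists were chosen with earlier results of these data known.

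Same-numbered samples deviated together from their group means between days of 1 dose (correlations over genes from 0.365 to 0.779 at 2 Gy and from 0.330 to 0.717 at 9 Gy), but not between other groups. Some differently numbered samples did so as closely, at 0.611 for 2 Gy day 3 replicate 3 with day 7 replicate 2. For 9 Gy day 3 replicate 1 with day 7 replicate 2 the correlation was 0.421. Others were negative, such as -0.677 for 2 Gy day 3 replicate 1 with day 7 replicate 2. The numbers are thus not shown to mark pairs. What the numbers share is not stated in the labels. Promoters and gene positions are from RefSeq, GRCm38.p6.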

Additional observations from a re-analysis of the deposited data

Results flagged for a closer look

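The log2 ratio of Ly86 to Ly96 stood out in 9 Gy day 3 replicate 1, at 6.09, while the other 5 samples given 9 Gy EVs lay between 2.45 and 3.46. Its gap to the next sample was 0.722 of the range of the 6 samples, above the critical value for a group of that size. The ratio rests on a raw count of 1 for Ly96, the lowest value in the data, beside 68 for Ly86. Of 20 groups of 6 samples examined in this way, 1 stood out, and chance alone gives about 1 in 20.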

How the results depend on the processing

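Depth limited the 9 Gy day 3 group, where Tlr1 had 3 to 5 counts and Ly96 1 to 17. For 9 Gy day 3 against sham EVs, the 4 members called were all lost with TMM or median-of-ratios scaling, where 1 other passed as higher (Tlr2), and with total counts, where 2 did (Tlr2 and Tlr4). They became 2 with housekeeping genes of a mean of at least 100, with a mean of at least 100 counts, or with the samples of conflicting day label placed at day 7 or left out (both leave 1 sample at day 3, whose spread is taken to be that of the other groups), and 1 to 4 without single samples. With a mean of at least 100 counts only Tlr2, Cd14 and Ly86 were tested, so Tlr1 and Ly96 were not lost but untested. At day 7 the 3 members called became 1 at a mean of at least 100 and 5 with DESeq2 or either treatment of the conflicting samples, and 2 to 4 without single samples. The 5 at day 7 include Tlr2 as higher. Between the doses the 4 became 2 with TMM, median-of-ratios (Tlr1 lower and Tlr2 higher) or a mean of at least 100, 0 lower and 3 higher (Ly86, Tlr2 and Tlr4) with total counts, and 4 to 5 without single samples. With counts under 20 set to 20, 3 members differed between the 9 Gy days. Of the pathway list, the 7 genes at day 3 became 17 with total counts, 11 with counts under 20 set to 20, 4 with only the groups compared and 4 to 8 without single samples, the 9 at day 7 became 15 with total counts and 5 to 10, and the 8 between the doses became 13 with TMM, 14 with median-of-ratios, 21 with total counts and 8 to 9. The difference in the Tlr2 to Tlr4 ratio was -0.07 with counts under 20 set to 20, 0.66 (exact permutation, adjusted p = 0.0429, with all samples taken as separate) without the conflicting samples and 0.48 to 0.81 without single samples. That of Cd14 to Ly96 (0.21) was -0.69 with counts under 20 set to 20 and -0.22 to 0.48 without single samples, and that of Ly86 to Ly96 (0.64) was -0.26 and 0.13 to 0.86, with no call. Directions turned with total counts for Tlr4 (0.84), Ly86 (0.41) at day 3, Tlr4 (1.07), Ly96 (0.13) and Ly86 (0.74) at day 7, and Tlr1 (0.053), Tlr4 (0.90), Cd14 (0.12), Ly96 (0.28) and Ly86 (0.59) between the doses. They turned for Tlr4 at day 7 with TMM (0.46) and median-of-ratios (0.46). With these 2 scalings, signs also changed without a call for Tlr4 at day 3 (0.30 and 0.31) and between the doses (0.23 and 0.22), and for Ly86 at day 7 (0.10 and 0.11). With counts under 20 set to 20, they turned for Tlr1 (0.82) and Tlr4 (1.11) at day 3, Tlr4 (0.42) between the doses, where Tlr1 (-0.0054) was no longer called, and Tlr1 (-1.92) and Tlr4 (-1.07) between the 9 Gy days, which follows from lifting the day 3 counts. Scaling by another reference sets the other turns by construction.

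With the replicate block, members called were 4 at day 3, 4 at day 7 and 5 between the doses, where Ly86 at day 7 (-0.38, adjusted p = 0.0475) and Tlr2 between the doses (0.47, adjusted p = 0.0406) passed in edgeR, and 0 between the days of either dose. The block changed no other call of a member. A fit of the 2 groups compared alone with the block, chosen after seeing the data, also gave 0. A planned ratio of Tlr9 to Tlr7 was not run, as Tlr7 was not analysed here.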
